A study of Homo sapiens with 10 samples.

Results

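The genes described are 38 genes of RNA polymerase II and of the factors that govern its passage through a transcribed gene, taken by symbol from the expression tables, where all 38 were found among 63152 gene identifiers. They comprise 12 subunits of RNA polymerase II, 5 genes of DSIF and NELF, 7 kinases and cyclins, 2 proteins of the 7SK ribonucleoprotein, 4 genes of the super elongation complex, 4 of the PAF complex, 3 histone chaperones and the cleavage factor TFIIS. The RNA came from C33A, a human cervical carcinoma line in which the study describes the SWI/SNF ATPases BRG1 and BRM as deficient. All cells were transiently transfected and harvested after 48 h, so each library holds cells that took up plasmid together with cells that did not. The control received the empty vector pOPRSVI, BRG1-wt received pBJ5-BRG1, BRG1-mut received pBJ5-BRG1-K798R, BRM-wt received pCG-hBrm and BRM-mut received pCG-hBrm-K798R, where the mutation lies in the ATPase domain. Each of these 5 groups had 2 replicate libraries of polyadenylated RNA, 10 in all, and BRG1 and BRM constructs sit in different plasmid backbones, as does the control.

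RNA polymerase II opens the DNA, starts RNA synthesis and then commonly pauses a short way downstream of the promoter, held there by DSIF and NELF. Release requires P-TEFb, a kinase made of CDK9 and a cyclin T, which the 7SK ribonucleoprotein holds inactive and the super elongation complex delivers to the polymerase. During elongation the PAF complex, SPT6 and FACT carry the polymerase through nucleosomes, and TFIIS rescues polymerase that has slipped backwards. Splicing of most introns takes place while the RNA is still attached to the polymerase, and the time the polymerase spends on an exon is one known influence on whether the exon is included. The study asked whether BRG1 and BRM act on exon choice, with polymerase pausing as one of the processes of interest, and the level and splicing of the pausing and elongation genes themselves form the background to that question.

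Exon events were listed for 3 of the 38 genes, and the exons of 2 of them that lie wholly in the coding sequence are shown because the largest differences in inclusion were theirs. Each is written 5′ to 3′ on the strand of the gene, with the exon in capitals and 20 intron bases on each side in lower case, from the GRCh37 genome.
CDK7, exon 5, chr5:68551287-68551355, plus strand: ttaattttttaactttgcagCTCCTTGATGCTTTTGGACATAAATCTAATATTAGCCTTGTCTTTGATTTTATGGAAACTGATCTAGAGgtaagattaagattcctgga
SUPT4H1, exon 3, chr17:56424890-56424945, minus strand: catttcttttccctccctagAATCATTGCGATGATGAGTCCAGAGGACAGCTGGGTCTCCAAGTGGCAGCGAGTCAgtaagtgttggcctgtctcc
Both exons are preceded by ag and followed by gt. The CDK7 exon has 69 bases, a multiple of 3, with a GC content of 33.3%, and the SUPT4H1 exon has 56 bases, 2 more than a multiple of 3, with a GC content of 53.6%.

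The 38 genes differ in base composition, which went with their ratios between the expression tables, and stretches of 90 coding bases of genes from opposite ends of the largest comparison (BRG1-mut over BRM-mut, described further on) are therefore shown, with G and C in capitals. Each is the start of the longest coding exon of the gene's canonical transcript, on GRCh37. POLR2E had the second highest ratio of the 38 genes, after POLR2L, and LARP7 and LEO1 were among the 3 lowest.
POLR2E, exon 2, chr19:1093988-1094077, minus strand: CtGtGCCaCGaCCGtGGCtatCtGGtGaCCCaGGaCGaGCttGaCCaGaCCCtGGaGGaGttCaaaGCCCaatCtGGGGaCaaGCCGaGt
LARP7, exon 7, chr4:113568355-113568444, plus strand: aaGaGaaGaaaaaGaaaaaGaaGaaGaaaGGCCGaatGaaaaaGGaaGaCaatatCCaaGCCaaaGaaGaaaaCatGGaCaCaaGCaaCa
LEO1, exon 2, chr15:52258612-52258701, minus strand: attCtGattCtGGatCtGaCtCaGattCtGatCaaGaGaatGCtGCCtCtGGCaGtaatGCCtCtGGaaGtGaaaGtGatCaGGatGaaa
G and C make up 54 of the 90 bases of POLR2E, against 32 in LARP7 and 39 in LEO1. Over the whole canonical transcript the GC content was 59.4% in POLR2L, 59.5% in POLR2E, 37.7% in LARP7 and 42.3% in LEO1.

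Each of the 4 expression tables held, per gene, the base mean, which is the average of the size-factor normalised read counts over 4 libraries, the 2 control libraries and the 2 libraries of 1 ATPase group. A base mean is thus 1 pooled value with no spread over libraries, so none of the levels and ratios below carries an error or a test, and a ratio between tables cannot be set against replicate variation. The same control libraries enter every table, which draws each ratio of base means towards 1 relative to the ratio between the groups. The base means of a table summed to between 36461843 and 38730372 normalised reads, and the depth of single libraries is unknown. The transfected genes were looked at first. SMARCA4, the gene of BRG1, had a base mean of 25802 and 29824 in the BRG1-wt and BRG1-mut tables and of 3864 and 3076 in the BRM-wt and BRM-mut tables. SMARCA2, the gene of BRM, had a base mean of 59658 and 75591 in the BRM tables and of 12.6 and 9.33 in the BRG1 tables. Of the epithelial markers the keratin KRT8 had base means of 456 in BRG1-wt, 134 in BRG1-mut, 371 in BRM-wt and 90.8 in BRM-mut, and KRT18 had 696, 272, 591 and 263. Both were thus higher in the wild-type tables than in the mutant ones, and the summed level of the 5 epithelial markers ranged from 389 to 1183, while the mean base mean was 26.6 for EPCAM, 5.00 for CDH1 and 0.606 for KRT19. The part of this difference in the ratios given below was not tested. Of the mesenchymal markers VIM stood at 11542, COL1A2 at 238, COL1A1 at 31.6 and DCN at 9.71. The leukocyte marker PTPRC stood at 1641, while CD3E was at 0 and the endothelial marker VWF at 2.05.

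All 38 genes were well represented, from ELL with a mean base mean of 163 over the tables to SUPT16H with 25609. Their median of 2736 compares with 601 over the 16451 genes kept (mean base mean of at least 10), and 34 of the 38 lay above that value. Levels can be set between genes only per length of transcript, and per kb of exon the FACT subunit SSRP1 was highest, at a base mean of 7044 per kb, followed by its partner SUPT16H at 5777. Next in level per kb came POLR2B at 5137, the second largest polymerase subunit, then POLR2G at 3264, a subunit of the dissociable stalk, and POLR2K at 2703, a small subunit shared by all 3 nuclear polymerases. The lowest were ELL at 41.0, ELL2 at 174 and AFF1 at 192 per kb, which all belong to the super elongation complex. Subunits of one assembly were thus far from equal in RNA level, since the 12 polymerase subunits spanned 581.6 to 5137 per kb. POLR2A, the catalytic subunit with the C-terminal repeat domain, stood at 1563 per kb.

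**Figure D1:**
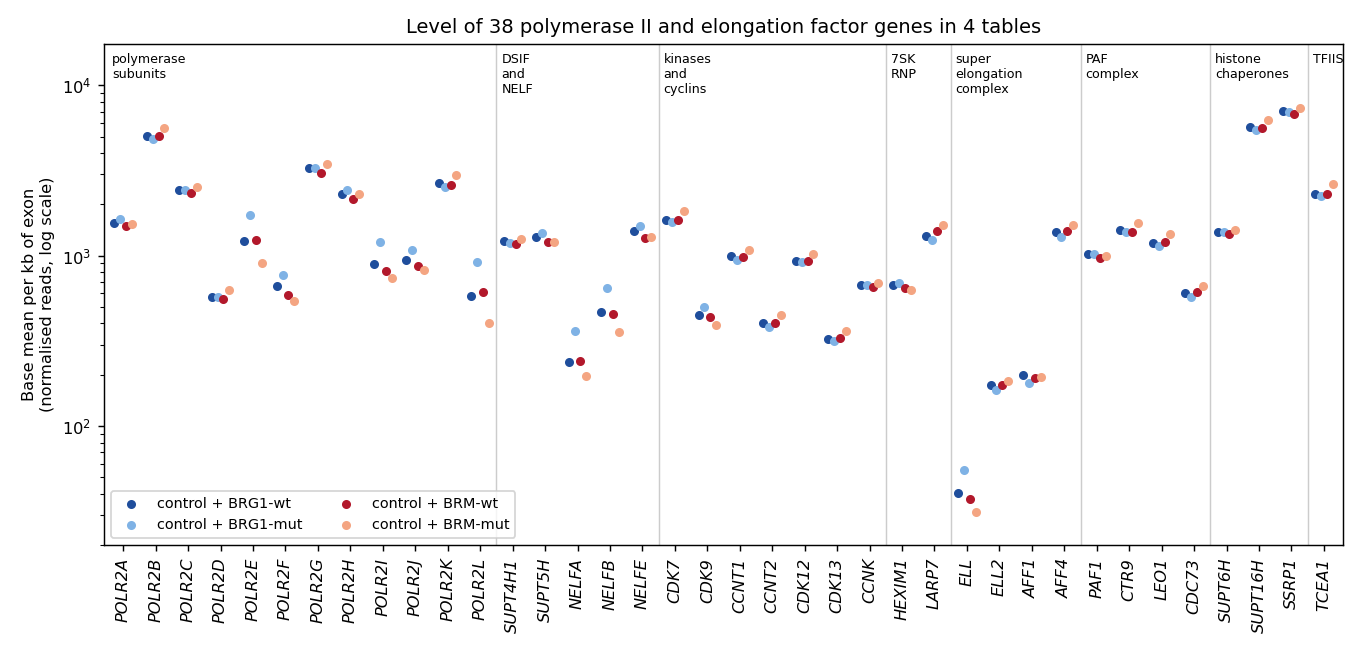
Base mean per kb of exon (log scale) of each of the 38 genes, grouped by role, with 1 point for each of the 4 tables, each a mean over 2 control libraries and 2 libraries of the named group. The points of most genes lie on top of each other, while those of POLR2E, POLR2I, POLR2L, NELFA, NELFB and ELL are spread, with BRG1-mut at the top and BRM-mut at the bottom.

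Levels differed little between the tables for most of the 38 genes. After the tables were put on one scale by the median over all genes kept, the highest table exceeded the lowest by 1.12-fold for the median of the 38 genes and by 1.15-fold for the median of all genes kept. The fold was 2.34 for POLR2L, 1.99 for POLR2E, 1.89 for NELFA, 1.88 for NELFB and 1.81 for ELL. It was 1.68 for POLR2I, 1.46 for POLR2F, 1.36 for POLR2J and 1.32 for CDK9, and 1.20 or less for the other 29. The tables of the ATPase mutants stood at the extremes. The highest level was in the BRM-mut table for 21 genes and in the BRG1-mut table for 16, and the lowest was in the BRG1-mut table for 15 and in the BRM-mut table for 14. Over all genes kept, 39.9% were highest in BRM-mut and 36.1% in BRG1-mut, and 36.6% were lowest in BRG1-mut and 35.4% in BRM-mut. The mutant tables thus held most of the extremes over all genes kept too. This is a count of ranks, and it does not show which group lay farther from the control.

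In the comparisons that follow, the log2 ratio of 2 base means was centred on the median of all genes kept, and a gene was counted as past the fold when the centred value was at least 0.32 above or below 0. BRG1-wt and BRG1-mut differ in the ATPase mutation within the same plasmid. Their amounts were not equal either. The study describes the wild-type proteins of BRG1 and BRM as slightly more abundant than the mutated ones. The base mean of SMARCA4 was 25802 in the BRG1-wt table and 29824 in BRG1-mut. The part of amount in the ratios was not tested. In BRG1-wt over BRG1-mut, 6 of the 38 genes were lower by this fold and 0 were higher, where 9.76% of all genes kept were lower and 4.88% higher. The values ran from -0.69 to 0.13, with a median of -0.01, and the middle 50% of all genes kept lay between -0.12 and 0.07. The 6 genes were POLR2L, NELFA, POLR2E, NELFB, ELL and POLR2I.

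BRM-wt and BRM-mut likewise differ in the ATPase mutation within the same plasmid, and also in amount, with a base mean of SMARCA2 of 59658 and 75591. In BRM-wt over BRM-mut, 5 of the 38 genes were higher by the fold and 0 lower, where 12.2% of all genes kept were higher and 1.84% lower. The 5 were POLR2L, POLR2E, NELFB, NELFA and ELL, with values from 0.67 for POLR2L to 0.33 for ELL, and the lowest value of the 38 genes was -0.13, for TCEA1. The median was -0.02. The shares of the 38 genes in these comparisons, 15.8% and 13.2% past the fold in either direction, lay near those of all genes kept.

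Between the wild-type ATPases, BRG1-wt over BRM-wt, 0 of the 38 genes passed the fold in either direction, against 2.26% higher and 1.43% lower among all genes kept. The values lay between -0.14 and 0.12, with a median of -0.02. The 5 that were farthest from 0 were LARP7 at -0.14, POLR2L at -0.13, POLR2F at 0.12, POLR2I at 0.09 and NELFE at 0.09, and POLR2A was at 0.01. No test of this comparison was possible, so it does not show that the genes had the same level in both groups.

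Between the mutants, BRG1-mut over BRM-mut, 9 of the 38 genes were higher by the fold and 0 lower, where 21.9% of all genes kept were higher and 2.33% lower. The values ran from -0.22 for LARP7 to 1.247 for POLR2L, with a median of -0.01. The 9 were POLR2L, POLR2E, NELFA, NELFB, ELL, POLR2I, POLR2F, POLR2J and CDK9. This comparison sets 2 plasmid backbones as well as 2 ATPases side by side, and the parts of these in it cannot be told apart. The BRG1-mut and BRM-mut tables also enter the comparisons with the wild types, so the lists of genes are not independent of each other.

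The polymerase itself showed the widest range. POLR2A had a base mean of 9864 in the BRG1-wt table, 10401 in BRG1-mut, 9441 in BRM-wt and 9710 in BRM-mut. These levels of the catalytic subunit lay close together, and the centred log2 ratio was -0.10 for BRG1-wt over BRG1-mut, 0.04 for BRM-wt over BRM-mut and 0.17 for BRG1-mut over BRM-mut. POLR2B, which with POLR2A forms the active centre, had base means of 19113, 18386, 19053 and 21226 in the same order, and its centred ratio between the mutants was -0.14, so the largest subunits leaned to opposite sides, each within the fold.

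POLR2L, a small zinc-binding subunit common to the 3 nuclear polymerases, had a base mean of 506 in the BRG1-wt table, 800 in BRG1-mut, 534 in BRM-wt and 354 in BRM-mut. After centring, the BRG1-mut table was 1.61-fold above BRG1-wt and BRM-wt was 1.59-fold above BRM-mut, with the wild-type tables in between. Between the mutants the ratio was 2.37-fold. Because the control libraries are common to all tables, a control mean of POLR2L can be no more than 699 normalised reads on the common scale, and the BRG1-mut mean then no less than 933, at least 1.34-fold above the control. This bound takes the control libraries to have the same normalised values in each table once scaled, and it has no replicate error. POLR2L was the only one of the 38 genes for which such a bound exceeded 1. How many of all genes kept have a bound above 1 was not counted. The bound is therefore not read as particular to POLR2L. As this is RNA of whole cultures, fewer cells with the transcript and less RNA per cell cannot be told apart here or in any value that follows.

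POLR2E, another subunit common to the 3 polymerases, had a base mean of 3473 in BRG1-wt, 4954 in BRG1-mut, 3527 in BRM-wt and 2576 in BRM-mut. Its order of tables was that of POLR2L, and the mutants differed by 2.02-fold after centring. POLR2I, which contributes to proofreading, had base means of 398, 535, 361 and 329 in the same order of tables. Its ratio between the mutants was 1.71-fold, while its centred log2 ratio was -0.46 for BRG1-wt over BRG1-mut and 0.22 for BRM-wt over BRM-mut. POLR2F, a common subunit, had base means of 1368, 1594, 1216 and 1129, and POLR2J, part of the assembly platform with POLR2C, had 883, 1006, 818 and 768, in that order. These subunits passed the fold between the mutants alone, at 1.48-fold and 1.38-fold. POLR2J has near-identical copies, POLR2J2 and POLR2J3, so the assignment of reads to it is uncertain, and with it its level.

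The other 6 polymerase genes (POLR2C, POLR2D, POLR2G, POLR2H, POLR2K and POLR2B) stayed within the fold in all 4 comparisons. POLR2C, which nucleates assembly with POLR2J, had base means of 4259, 4276, 4131 and 4484, the least spread of any subunit. POLR2K, common to the 3 polymerases like POLR2L, had base means of 2526, 2402, 2474 and 2835. It was lowest in BRG1-mut and highest in BRM-mut, the reverse of POLR2L, and its centred log2 ratio between the mutants was -0.17. Subunits of the same enzyme thus had different orders of tables, with no replicate error to set the differences against.

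Of the pausing factors, NELFA and NELFB passed the fold between the mutants and NELFE did not. NELFA had a base mean of 519 in BRG1-wt, 794 in BRG1-mut, 529 in BRM-wt and 435 in BRM-mut, and NELFB, which joins the other NELF subunits, had 1185, 1643, 1157 and 903. For both, BRG1-mut was highest and BRM-mut lowest, with ratios between the mutants of 1.92-fold and 1.91-fold. NELFE, the RNA-binding subunit, had 2020, 2159, 1834 and 1858, and its centred log2 ratio between the mutants, 0.29, lay just inside the fold. For DSIF, the large subunit SUPT5H had base means of 4748, 5019, 4419 and 4451 and a centred log2 ratio between the mutants of 0.24. The small subunit SUPT4H1, at 1816, 1764, 1752 and 1876, varied by 1.03-fold from the lowest to the highest table after scaling.

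Among the kinases and cyclins, CDK9, the kinase of P-TEFb, alone passed the fold, and in the mutant comparison alone. Its base means were 1118 in BRG1-wt, 1240 in BRG1-mut, 1089 in BRM-wt and 973 in BRM-mut, a ratio of 1.34-fold between the mutants. Its cyclins leaned the other way within the fold, with a centred log2 ratio of -0.11 for CCNT1 and -0.16 for CCNT2. CDK7, the kinase of TFIIH that acts at initiation and also activates CDK9, had base means of 2298, 2260, 2312 and 2595. CDK12 and CDK13, which act on the polymerase later in the gene, and their cyclin CCNK had centred log2 ratios between the mutants of -0.07, -0.12 and 0.02.

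HEXIM1 and LARP7, which respectively inhibit P-TEFb and stabilise the 7SK RNA, stood on opposite sides. LARP7 had base means of 2761, 2603, 2947 and 3195, so that both BRM tables lay above both BRG1 tables, and its ratio of -0.14 was the lowest of the 38 genes between the wild types. HEXIM1 had base means of 2449, 2503, 2337 and 2265 and a ratio between the mutants of 0.22 on the centred log2 scale. In the super elongation complex only ELL, which raises the rate of elongation, passed the fold. It had base means of 160 in BRG1-wt, 218 in BRG1-mut, 148 in BRM-wt and, lowest of all, 124 in BRM-mut. These were the lowest levels of the 38 genes, with 1.84-fold between the mutants. Its relative ELL2 and the scaffolds AFF1 and AFF4 had ratios between the mutants of -0.11, -0.06 and -0.16, on the other side of 0.

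The genes of the PAF complex, the histone chaperones and TFIIS all stayed within the fold in the 4 comparisons. The 4 PAF genes had centred log2 ratios between the mutants from -0.17 for LEO1 to 0.11 for PAF1, and with CTR9 and CDC73 at -0.10 and -0.14. The FACT genes had base means between 24326 and 27917 for SUPT16H and between 19142 and 20833 for SSRP1, and SUPT6H, which chaperones histones behind the polymerase, lay between 8644 and 9085. TCEA1, the gene of TFIIS, had base means of 6434, 6188, 6388 and 7369, with the highest value in BRM-mut and a centred log2 ratio between the mutants of -0.18.

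The ratio of a gene followed the GC content of its transcript, which the choice of the genes did not use. The 38 genes had a median exonic GC content of 49.1%, against 47.8% for the 15971 genes kept that had a value. Across the 38 genes the rank correlation of GC content with the centred log2 ratio was -0.91 for BRG1-wt over BRG1-mut, 0.76 for BRM-wt over BRM-mut, 0.53 for BRG1-wt over BRM-wt and 0.93 for BRG1-mut over BRM-mut. Over all genes kept the values were -0.55, 0.57, 0.35 and 0.80. Genes of one table share its libraries and are not independent points, and the values are given as a description.

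All 13 genes with a GC content of at least 55% (POLR2A, POLR2E, POLR2F, POLR2H, POLR2I, POLR2J, POLR2L, SUPT5H, NELFA, NELFB, NELFE, CDK9 and ELL) were highest in the BRG1-mut table. They had a median log2 ratio of 0.57 between the mutants, where all genes of that GC content had 0.48. Of the 15 genes under 45%, 14 were highest in BRM-mut and 0 in BRG1-mut, with a median ratio of -0.14 against -0.12 for all genes of that GC content. The 10 genes in between had a median of -0.00 against 0.03, and 7 of them were highest in BRM-mut. Every gene past the fold in any comparison belonged to the class of at least 55%. For all genes of each class, the shares highest in either mutant table or past the fold were not counted. The counts by class are therefore not read as particular to the genes described.

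**Figure D2:**
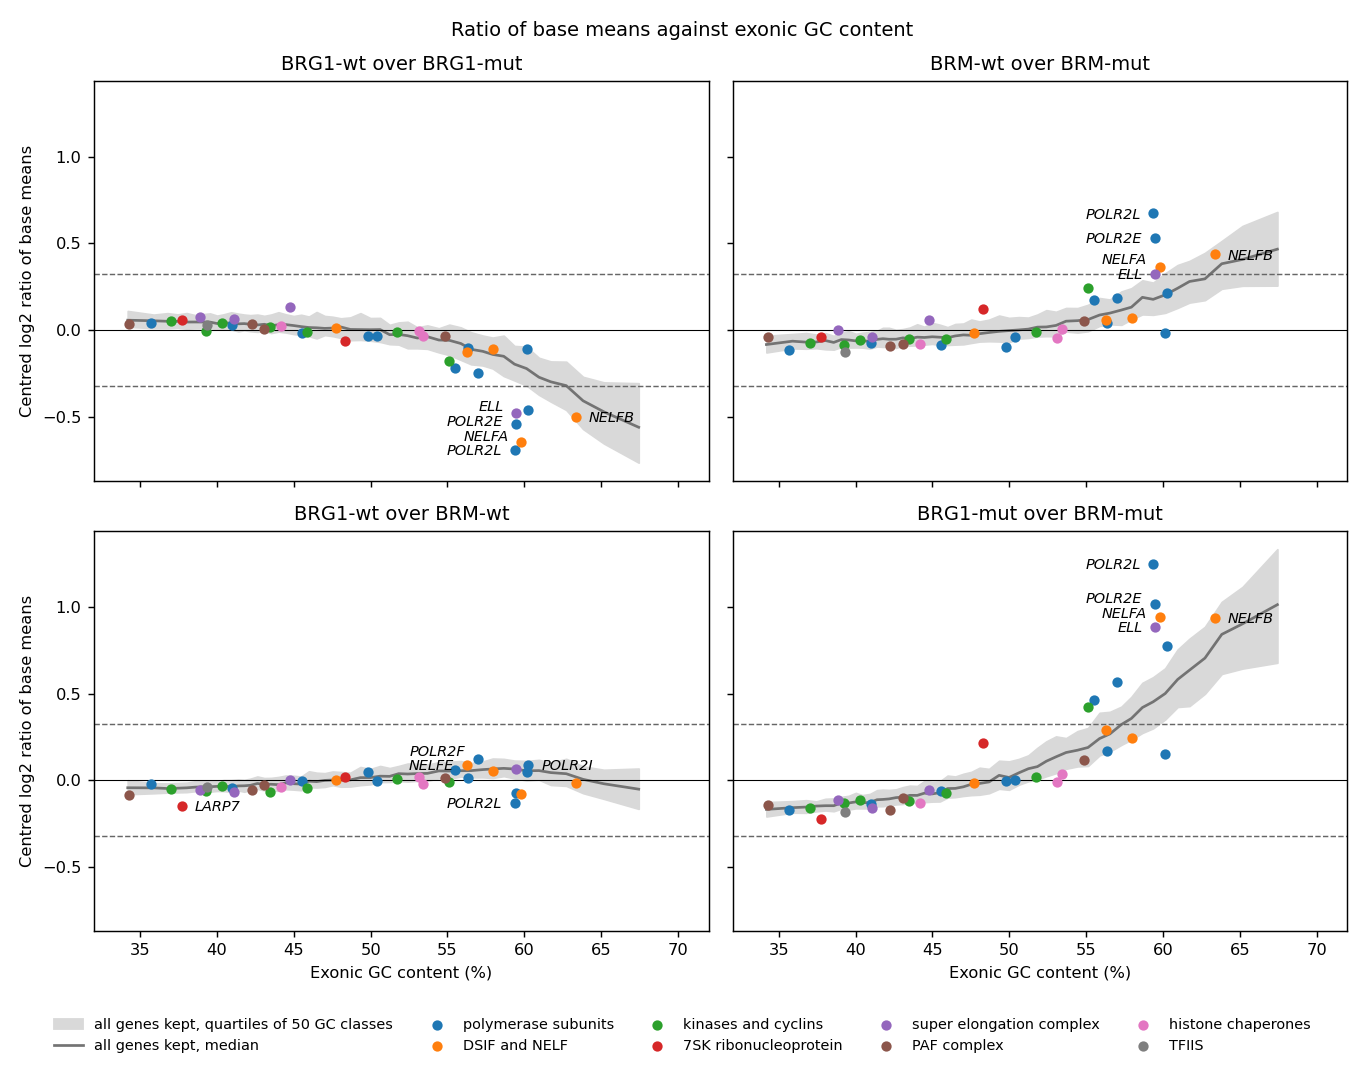
Centred log2 ratio of base means against exonic GC content (%) in the 4 comparisons, with the 38 genes as points coloured by role, the 5 genes farthest from 0 named, and all genes kept as the median (line) and quartiles (band) of 50 classes of GC content. Dashed lines mark the fold at 0.32 above and below 0. The points broadly follow the line, most steeply in BRG1-mut over BRM-mut. There POLR2L at 1.247 stands above the band and POLR2H at 0.15 below it. Further genes lie outside the band in that comparison, among them POLR2E, NELFA, ELL and POLR2I above it and LARP7, LEO1 and TCEA1 below it.

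The median ratio of all genes of like GC content was then subtracted from each gene. In BRG1-wt over BRG1-mut 3 of the 38 genes then remained lower by the fold, NELFA at -0.45, POLR2L at -0.49 and POLR2E at -0.35, where 2.93% of all genes were lower and 6.07% higher. In BRM-wt over BRM-mut POLR2L at 0.50 and POLR2E at 0.36 remained higher, where 6% of all genes were higher and 2.54% lower. Between the wild types 0 genes passed, where 1.98% were higher and 1.3% lower. Between the mutants 4 genes were higher, POLR2L at 0.79, POLR2E at 0.56, NELFA at 0.49 and ELL at 0.43, and 1 was lower, POLR2H at -0.35, where 5.67% of all genes were higher and 4.38% lower. POLR2L and POLR2E thus kept their side and the fold in each comparison of a mutant, whereas NELFB moved from 0.93 to 0.09 between the mutants and POLR2A from 0.17 to -0.10. The rank correlation with GC content over the 38 genes after subtraction was -0.34, 0.19, -0.05 and 0.25 in the order of comparisons above. The part of GC content in these ratios was not tested.

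**Figure D3:**
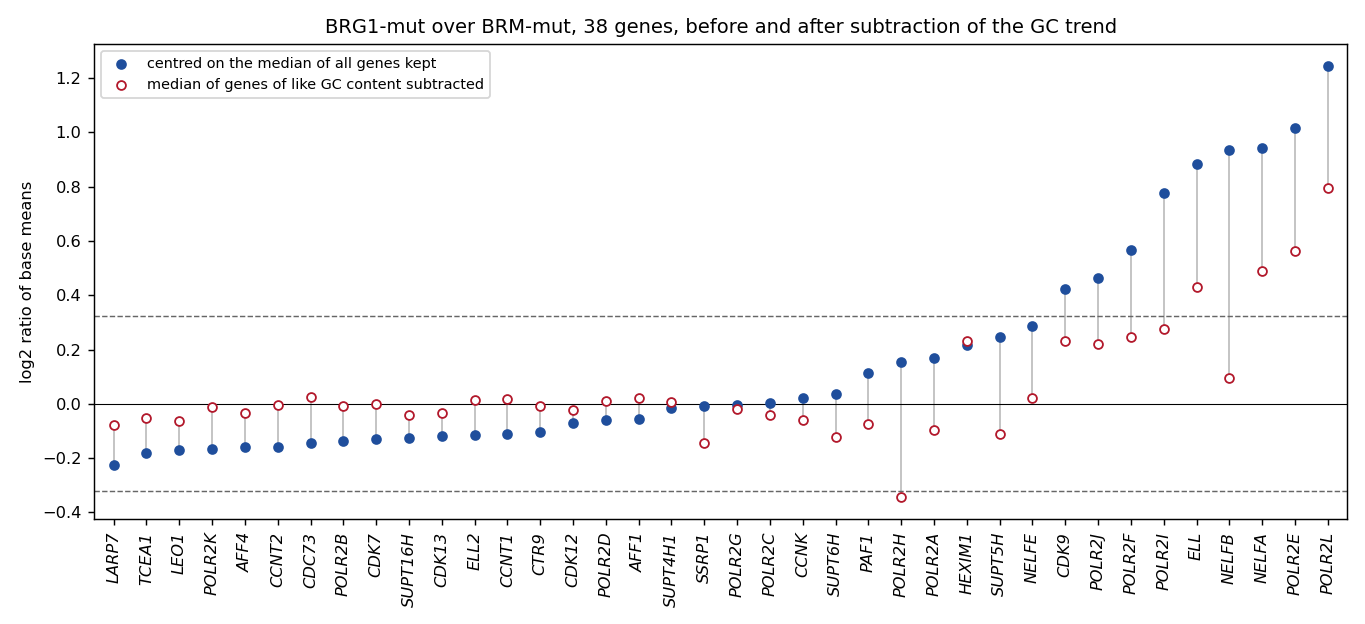
Log2 ratio of base means of BRG1-mut over BRM-mut for each of the 38 genes in rising order, as centred on the median (filled) and with the median of its GC class taken off (open), with dashed lines at 0.32 above and below 0. Most open points lie near 0, while POLR2L (0.79), POLR2E (0.56), NELFA (0.49) and ELL (0.43) stay above the upper line and POLR2H (-0.35) falls below the lower one.

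POLR2H, a common subunit named here because its values stood out after they were seen, had a GC content of 60.2% and base means of 4139, 4379, 3865 and 4133. It is as rich in GC as POLR2I at 60.3%, yet its ratio between the mutants was 0.15 where that of POLR2I was 0.78. POLR2E and POLR2L, with 59.5% and 59.4%, had 1.01 and 1.247. Genes of one GC content and one enzyme therefore covered a wide range. Transcript length went with the ratios less closely than GC content, with rank correlations over the 38 genes of 0.45 for BRG1-wt over BRG1-mut, -0.16 for BRM-wt over BRM-mut, -0.30 for BRG1-wt over BRM-wt and -0.33 for BRG1-mut over BRM-mut, and its part was not tested.

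Other genes of the same pathway were counted in the same way. Of 34 such genes, all matched, 32 were kept, and 3 were lower by the fold in BRG1-wt over BRG1-mut (9.76% of all genes kept) and 4 higher in BRM-wt over BRM-mut (12.2%). Between the wild types 0 were past the fold (2.26% higher and 1.43% lower), and between the mutants 8 were higher (21.9%), so that these counts lay near the shares of all genes kept. ELOB, which encodes elongin B, and MLLT1, a reader of acetylated histones in the super elongation complex, passed the fold in each comparison of a mutant. ELOB had base means of 1405 in BRG1-wt, 2118 in BRG1-mut, 1426 in BRM-wt and 1040 in BRM-mut, and a ratio between the mutants of 1.097 that was 0.60 after subtraction. MLLT1 had 416, 555, 380 and 310, with a ratio of 0.91 that was 0.07 after subtraction. TCEA2, HEXIM2 and CTDP1, which encode a second TFIIS, a second HEXIM protein and a phosphatase of the polymerase's C-terminal domain, passed it in 2 comparisons each, with ratios between the mutants of 0.74, 0.72 and 0.76 that came to 0.11, 0.14 and 0.06. Of these 5 genes ELOB alone stayed past the fold after subtraction, as POLR2L and POLR2E did.

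Splicing was given in 8 tables, each setting 1 ATPase library beside the like-numbered control library and listing exon events past a threshold of evidence. PSI, or percent spliced in, is the share of the form with the exon among the forms of that event with and without it. It does not cover all transcripts of the gene. An exon that is not listed has no PSI here, so absence from a table does not show equal inclusion, and the number of reads behind a PSI is unknown. An event was listed for 3 of the 38 genes, 7.89%, against 13.4% of all genes kept, and 35 had none. In BRG1-wt 2 of the genes had an event and in BRM-wt 2, against 4.68% and 7.15% of all genes kept. In BRG1-mut and in BRM-mut 0 had one, against 5.8% and 4.8%. These shares are over genes of all levels, while most of the 38 lay above the median level. The share among genes of like level was not counted. There were 4 listings of 3 exons, and 0 exons were listed in both replicates of a group. Over all genes, 543 of 4648 events counted per group, 11.7%, were listed in both.

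CDK7 had the only exon listed in more than 1 group. Its exon 5 had a PSI of 0.77 in control replicate 2, 0.97 in BRG1-wt replicate 2 and 0.94 in BRM-wt replicate 2. Inclusion was thus higher by 0.20 and by 0.17, but both differences are taken from the same control library, and replicate 1 of neither group listed the exon. The exon is coding over all 69 bases and lies in 4 annotated protein-coding transcripts of the gene, and its omission keeps the reading frame by length. The base mean of CDK7 was within the fold in all comparisons.

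SUPT4H1, which encodes the small subunit of DSIF, had a PSI for exon 3 of 0.96 in control replicate 2, whereas in BRM-wt replicate 2 it was 0.86. The exon was thus included less in the BRM-wt library by 0.10. Its 56 bases are all coding, its omission would shift the reading frame, and it lies in 4 annotated protein-coding transcripts. The gene SUPT16H had an exon of 249 bases (chr14:21840628-21840876, minus strand) with a PSI of 0.01 in control replicate 1 and 0.00 in BRG1-wt replicate 1. This exon is annotated in 1 transcript, one marked for nonsense-mediated decay, and was all but absent from both libraries.

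**Figure D4:**
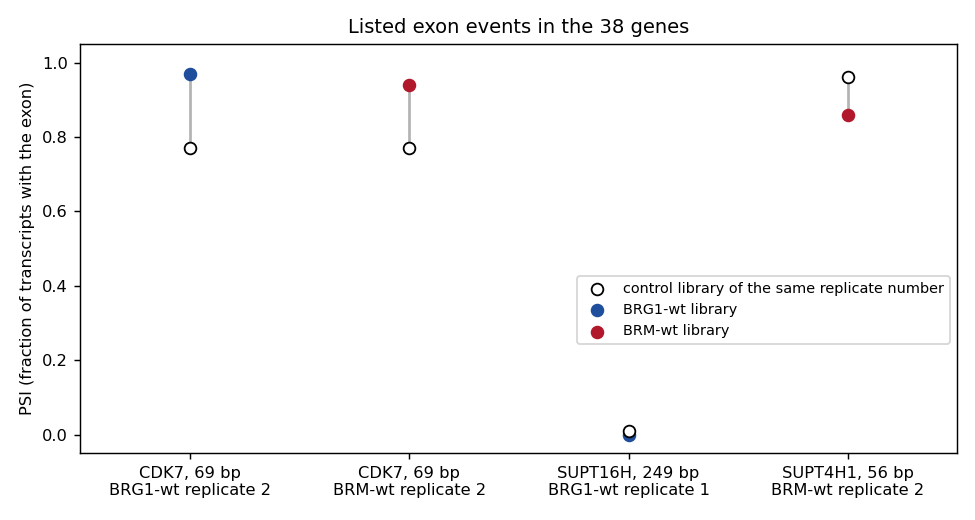
PSI (share of the form with the exon) in each of the 4 listings of exon events in the 38 genes. The control library is an open point and the like-numbered ATPase library a filled point. The CDK7 exon stands at 0.77 in the control and at 0.97 and 0.94 in the BRG1-wt and BRM-wt libraries, SUPT4H1 falls from 0.96 to 0.86 and SUPT16H is near 0 in both libraries.

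Of the 4 listings 3 came from replicate 2 tables and 1 from a replicate 1 table, and all 4 came from wild-type ATPases. With 2 pairs of libraries an exact sign-flip test cannot give a two-sided p below 0.5, so no difference in PSI was tested, and the difference between wild-type and mutant tables in the number of listings was not tested either. Among the other pathway genes 6 of 32 had an event in any group, beside 13.4% of all genes kept, in 16 listings, and none of those exons was listed in both replicates of a group.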

How the data were processed

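Polyadenylated RNA of 10 libraries was sequenced by the authors, who mapped reads to GRCh37 with TopHat2 2.0.4, counted them on genes with HTSeq 0.6.1 without removing duplicates and ran DESeq2. The deposited base mean, a signal averaged over 2 control and 2 group libraries, was the level used. The deposited splicing tables give PSI as a fraction for each event past a MISO threshold. The authors' fold changes, p-values, Bayes factors, PSI differences and direction flags were not used. A second copy of the BRG1-wt table was left out. No counts per library were used, so no test, interval or error was computed.

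Genes with a mean base mean of at least 10 were kept, log2 ratios were centred on their median, and the median of 50 classes of exonic GC content was subtracted where stated. Length and GC content are those of the canonical GENCODE transcript, with GC content for 97.1% of genes kept. Replicate numbers pair each ATPase library with 1 control library. Genes named were POLR2A, the 5 genes with the largest ratio in each comparison, all genes with an event, the 5 highest and 3 lowest per kb, and up to 5 other pathway genes past the fold most often. The genes and lists were chosen with earlier results of these data known. The endothelial marker PECAM1 was not matched, and 1 leukocyte marker and 1 coding stretch are not reported here. The code for centring and for subtraction of the GC trend was checked on simulated data with known ratios. Python 3.11.15, numpy 2.4.6, pandas 2.3.3, pysam 0.24.0 and matplotlib 3.10.9 were used.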

Additional observations from a re-analysis of the deposited data

How the results depend on the processing

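Medians of the 38 genes moved by less than 0.1 on the log2 scale under every alternative tried (a minimum base mean of 100, no minimum, centring by total base mean, and subtraction for GC content), and the counts past the fold were the same or within 1.5-fold under the first 3. Subtraction for GC content gave 3 genes in place of 6 in BRG1-wt over BRG1-mut, 2 in place of 5 in BRM-wt over BRM-mut and 5 in place of 9 in BRG1-mut over BRM-mut. A fold of 1.5 left 2 genes in BRG1-wt over BRG1-mut and 1 in BRM-wt over BRM-mut. A fold of 1.1 gave 9 genes in BRM-wt over BRM-mut, 1 in BRG1-wt over BRM-wt and 21 in BRG1-mut over BRM-mut. Of these 21 genes 14 were higher and 7 lower. For the 38 genes that comparison was thus one-sided at the fold used in the report but not at this one. Shares of all genes kept were not counted at folds of 1.5 and 1.1, nor for exon events under the settings that follow. Genes with an exon event numbered 1 in BRG1-wt without either replicate, and in BRM-wt 2 without replicate 1 and 0 without replicate 2. A change in PSI of at least 0.2 left 1 in BRG1-wt, where CDK7 lies at that limit, and 0 in BRM-wt. Requiring both replicates left 0 in BRG1-wt and 0 in BRM-wt, so no change in PSI over both replicates could be given. No paired analysis was possible because the results come from no test: base means are pooled over libraries and no exon of the 38 genes was listed in both pairs. The depth of single libraries and events is unknown, which limits every value.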
